A study of Mus musculus with 28 samples.

Results

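The respiratory chain genes of mouse kidney were followed in 28 libraries as a set encoded in the mitochondrial genome and a set encoded in the nucleus. Members were taken by gene symbol: mt-Nd, mt-Co, mt-Cytb and mt-Atp genes for the mitochondrial set, and Nduf (a, b, c, s or v with a digit), Sdha to Sdhd, Uqcr and Cox4 to Cox8 genes for the nuclear set. This rule found 81 of the 56748 genes in the count table, 13 mitochondrial and 68 nuclear, after 6 pseudogenes (Uqcrh-ps1, Uqcrh-ps2, Ndufs6b, Cox6c2, Ndufb4c and Ndufa11b) were left out. By complex, the nuclear members comprised 38 of complex I, 4 of complex II, 8 of complex III and 18 of complex IV. The mitochondrial members comprised 7 of complex I, 1 of complex III, 3 of complex IV and 2 of complex V, the ATP synthase. Of the 81 members, 79 had enough counts to be tested, and Cox7b2 and Cox8c had 2 and 3 counts in all 28 libraries.

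The study compared whole kidneys of untreated mice that carried wild-type aquaporin-3 (WT) or a variant of this water channel that mimics its acetylated (Q) or deacetylated (R) form. Aquaporin-3 lets water and glycerol cross the basal side of principal cells in the collecting duct. Each genotype was sequenced in both sexes with 5 libraries per group, except R females with 3, from kidneys taken between zeitgeber hours 2 and 5. The labels name no strain or age and do not say that the libraries of a group came from separate animals, so p-values measure the spread between libraries, which may be technical.

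The respiratory chain passes electrons from NADH (complex I) and succinate (complex II) through complex III to cytochrome c oxidase (complex IV), and pumps protons that drive the ATP synthase. The subunits of complexes I, III and IV are split between the genomes. The mitochondrial DNA is copied into long transcripts that are cut into separate mRNAs, while the remaining subunits are transcribed in the nucleus and imported. Proximal tubule cells, which reabsorb most filtered salt, rely heavily on this pathway. In whole kidney, fewer cells of a type and less RNA per cell cannot be told apart.

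Library totals ran from 14825417 to 21403804 counts, and the members of the mitochondrial set took 3.15% to 11.3% of them, those of the nuclear set 1.61% to 2.92%. Proximal tubule markers summed to between 18750 and 66258 counts-per-million units (CPM, scaled by the trimmed mean of M values) in every library, so the labelled tissue was there in all. Aqp3 itself lay between 93.4 and 137 CPM, a level that does not check the genotype labels, since the variants change the protein and not the amount of its mRNA by design. Male Q replicate 4 and female Q replicate 5 stood apart from the other 26 libraries in the members' levels, and the results they move most are given with and without them.

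A run of neighbouring mitochondrial genes proved to have near-identical copies in the nucleus, which bears on how their reads could be counted. The annotated transcripts (GENCODE M21) of Gm28661, Gm10925, Gm28437, Gm28438 and Gm10222, all unprocessed pseudogenes on chromosome 1, were set beside mt-Co2, mt-Atp6, mt-Co3, mt-Nd3 and mt-Nd4l. Over the aligned bases the copies of mt-Co2 (681 bases), mt-Atp6 (678), mt-Co3 (783) and mt-Nd4l (294) were letter for letter the same as the gene. The copy of mt-Nd3 differed at 1 of 345 bases, T3C, counted from 1 at the first base of the gene, with the gene's base first. Gm28439 equalled mt-Nd4 over its first 876 of 1378 bases, and Gm29216 matched the last 492 bases of mt-Co1 apart from 6 differences (T1056A, C1057T, A1059G, A1060G, C1062A and A1066T). The first 60 aligned bases of the mt-Nd3 and mt-Co1 pairs show where gene and copy part, with the differing bases in capitals. The aligned stretch of mt-Nd4l shows a gene that no read from within it can tell from its copy:
mt-Nd3, bases 1 to 60: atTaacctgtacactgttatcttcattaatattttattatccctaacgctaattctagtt
Gm28438: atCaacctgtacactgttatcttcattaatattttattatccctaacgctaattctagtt
mt-Co1, bases 1054 to 1113: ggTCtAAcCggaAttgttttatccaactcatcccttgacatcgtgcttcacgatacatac
Gm29216: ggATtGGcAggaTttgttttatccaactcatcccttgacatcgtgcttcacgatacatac
mt-Nd4l, bases 1 to 294, and Gm10222: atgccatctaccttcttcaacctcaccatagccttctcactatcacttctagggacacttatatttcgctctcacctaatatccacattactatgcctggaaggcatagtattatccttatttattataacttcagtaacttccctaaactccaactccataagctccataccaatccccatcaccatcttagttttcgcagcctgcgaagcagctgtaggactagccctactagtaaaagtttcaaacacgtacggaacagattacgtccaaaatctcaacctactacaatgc
The aligned copies thus run from within mt-Co1 to within mt-Nd4.

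The 13 mitochondrial genes fell into 2 ranges of level that followed this map. The 7 genes mt-Nd1, mt-Nd2, mt-Co1, mt-Nd4, mt-Nd5, mt-Nd6 and mt-Cytb held 99.8% of the set's counts, between 1242409 for mt-Nd6 and 18866496 for mt-Co1 over all libraries. The 6 genes that lie next to each other between mt-Co1 and mt-Nd4, namely mt-Co2, mt-Atp8, mt-Atp6, mt-Co3, mt-Nd3 and mt-Nd4l, held 0.231%, between 1663 for mt-Atp8 and 31009 for mt-Co2. Of the 50-base windows of mt-Co2, mt-Atp6, mt-Co3, mt-Nd3 and mt-Nd4l, 98.0% to 100% occurred in the transcript of another gene. That share was 0% for mt-Nd1, mt-Nd6, mt-Cytb and mt-Atp8. The last lies within the low run and overlaps mt-Atp6 over 21.1% of its bases, and only annotated transcripts were searched. The partly copied mt-Co1 and mt-Nd4 shared 51.1% and 62.2% of their windows and were counted at a median of 37867 and 7006 CPM.

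**Figure D1:**
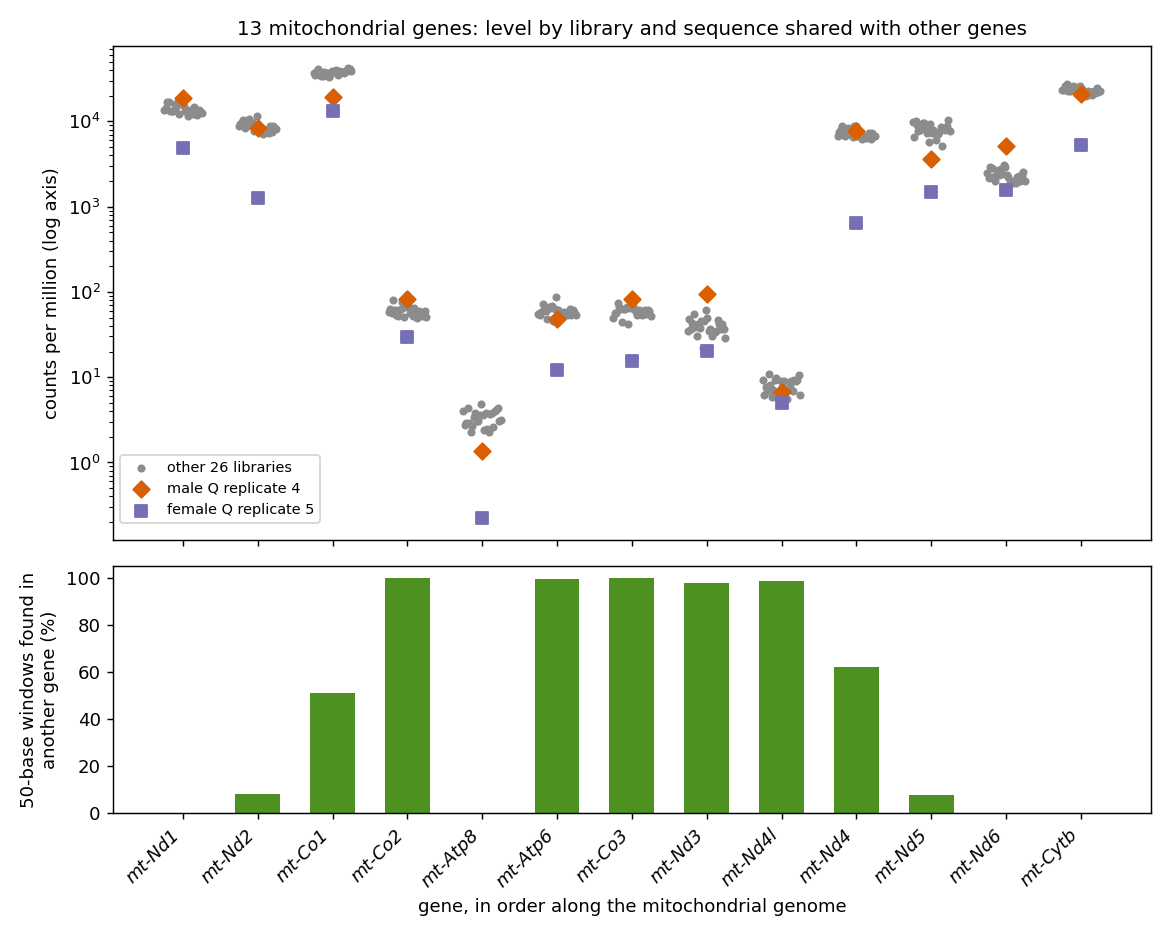
CPM on a log axis (upper panel) for the 13 mitochondrial genes in their order along the genome, 1 point per library, and the percentage of each gene's 50-base windows that occur in a transcript of another gene (lower panel). The run from mt-Co2 to mt-Nd4l sits at median levels of 3.10 to 60.5 CPM, and the genes on either side at 2281 to 37867 CPM.

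On the scale of CPM per kilobase of transcript, which allows levels of genes to be compared, mt-Co1, the catalytic core of cytochrome c oxidase, had the highest median of all members at 24509, followed by mt-Cytb (20009), the core of complex III, and mt-Nd1 (14045), a membrane subunit of complex I. The other 4 genes of the high range had 8293 (mt-Nd2), 5084 (mt-Nd4), 4396 (mt-Nd6) and 4364 (mt-Nd5) CPM per kilobase. Counting was without strand, so reads of both strands over mt-Nd6 entered its value. The low run had 15.2 to 107.2 on the same scale. The authors counted with featureCounts without an option to keep reads that map to several places, per the file header, and the pseudogenes on chromosome 1 were themselves counted at 33651 (Gm28661), 32974 (Gm10925), 28237 (Gm28437), 3192 (Gm28438) and 2158 (Gm10222) reads. The counts of mt-Co2, mt-Atp6, mt-Co3, mt-Nd3 and mt-Nd4l are therefore uncertain as measures of those mRNAs, and reads of gene and copy cannot be told apart over the shared bases. mt-Co2 with mt-Co1 and mt-Co3 forms the core of complex IV, and mt-Atp6 and mt-Atp8 belong to the membrane part of the ATP synthase. Of these proteins' genes, mt-Co1 alone was counted in the high range.

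Among nuclear members, subunits of complex IV spanned the widest range per length. Their median levels ran from 1.12 CPM per kilobase for Cox4i2, the isoform of subunit 4 found mainly in lung, to 1932 for Cox6a1, a regulatory subunit of complex IV. In complex I the range was 3.19 (Ndufb2) to 715 (Ndufa4, a protein named for complex I and now placed with complex IV). The value of Ndufb2 is uncertain: its annotated transcript has 4371 bases, and 447 of its 5628 exon bases lie in exons of other genes. Complex II ran from 117 (Sdhc, a membrane anchor) to 484 (Sdhb, the iron-sulfur subunit) and complex III from 234 (Uqcrc2, a core protein) to 559 (Uqcr10, a small subunit). The complexes' medians over members were 213, 291, 342 and 334 CPM per kilobase for I, II, III and IV. Against these, every mitochondrial gene of the high range lay above every nuclear member. Of the 68 nuclear members, 53 had a median over 100 CPM in CPM not divided by length.

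Isoforms known from other tissues were low. Median levels were 0.821 CPM for Cox4i2, 5.06 for Cox8b (heart, skeletal muscle and brown fat), 5.51 for Cox6a2 (heart and skeletal muscle), 5.62 for Ndufa4l2 (induced in hypoxic cells), 9.32 for Cox6b2 (testis) and 25.5 for Cox7a1 (muscle and brown fat). The testis isoforms Cox7b2 and Cox8c had at most 1 count in any library. Several nuclear members also share sequence with processed pseudogenes, above all Cox7c (53.0% of 50-base windows), Uqcrb (43.2%) and Ndufb4 (37.0%). Ndufb6 and Ndufa13 overlap the exons of Smim27 and Tssk6 over 257 of 659 and 375 of 1251 of their own exon bases. Counts of these 5 members are uncertain to that extent.

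Promoters of nuclear members were searched for motifs of factors known to drive respiratory genes, because levels of nuclear members ran together across libraries. RefSeq promoter sequences (GRCm38.p6) matched 53 of 68 nuclear members by symbol, and the 250 bases before each start were searched on both strands. The NRF1 palindrome occurred in 2 of 53 members (3.8%) and in 0.9% of the 27025 genes in the table. The ETS core CCGGAAG, bound by GABP among others, occurred in 8 members (15.1%) and in 7.8% of all genes. The YY1 motif AAGATGGCG and the estrogen-related receptor motif TCAAGGTCA were in none of the 53, and in 0.7% and 0.4% of all genes. The SP1 motif GGGGCGGGG was in 11.3% of members and 11.8% of genes, and CCAAT in 39.6% and 37.5%. None of these letter strings contains another, and a match is only a match of letters. Stretches around the NRF1 letters in both members that hold them, and around the ETS letters in Cox6a1 and in Uqcr11, a small complex III subunit, are shown in the direction of transcription with the motif in capitals (the ETS letters of Cox6a1 lie on the reverse strand):
Cox6a1, chr5:115349091-115349140, minus strand: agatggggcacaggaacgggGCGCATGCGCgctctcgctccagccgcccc
Ndufa11, chr17:56717682-56717731, plus strand: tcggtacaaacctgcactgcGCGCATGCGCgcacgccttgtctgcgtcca
Cox6a1, chr5:115348959-115348994, minus strand: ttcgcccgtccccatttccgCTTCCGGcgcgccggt
Uqcr11, chr10:80406861-80406907, minus strand: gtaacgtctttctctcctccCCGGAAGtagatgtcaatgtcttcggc
The NRF1 letters began 162 bases before the start in Cox6a1 and 60 in Ndufa11.

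Summed over members, the groups overlapped in both sets, and the widest spreads came from the libraries that stood apart. The sum of the mitochondrial set was 105775 ± 8341 CPM in male WT (SD, n = 5), 98540 ± 10073 in male Q (n = 5), 104489 ± 9878 in male R (n = 5), 96717 ± 4917 in female WT (n = 5), 83251 ± 30792 in female Q (n = 5) and 103508 ± 4085 in female R (n = 3). Female Q without replicate 5 stood at 96951 ± 3616 (SD, n = 4), so the low mean and large spread of that group came from 1 library. The nuclear set summed to 18415 ± 1167, 21092 ± 8159, 20112 ± 2389, 17492 ± 669, 18200 ± 3156 and 16900 ± 1064 CPM in the same order. Male Q without replicate 4 had a nuclear sum of 17455 ± 766 and a mitochondrial sum of 102150 ± 6956 (SD, n = 4). Female Q without replicate 5 had a nuclear sum of 17134 ± 2387 (SD, n = 4). The mitochondrial sum divided by the nuclear sum lay between 4.50 and 6.61 in 26 libraries, was 2.36 in male Q replicate 4 and 1.27 in female Q replicate 5.

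**Figure D2:**
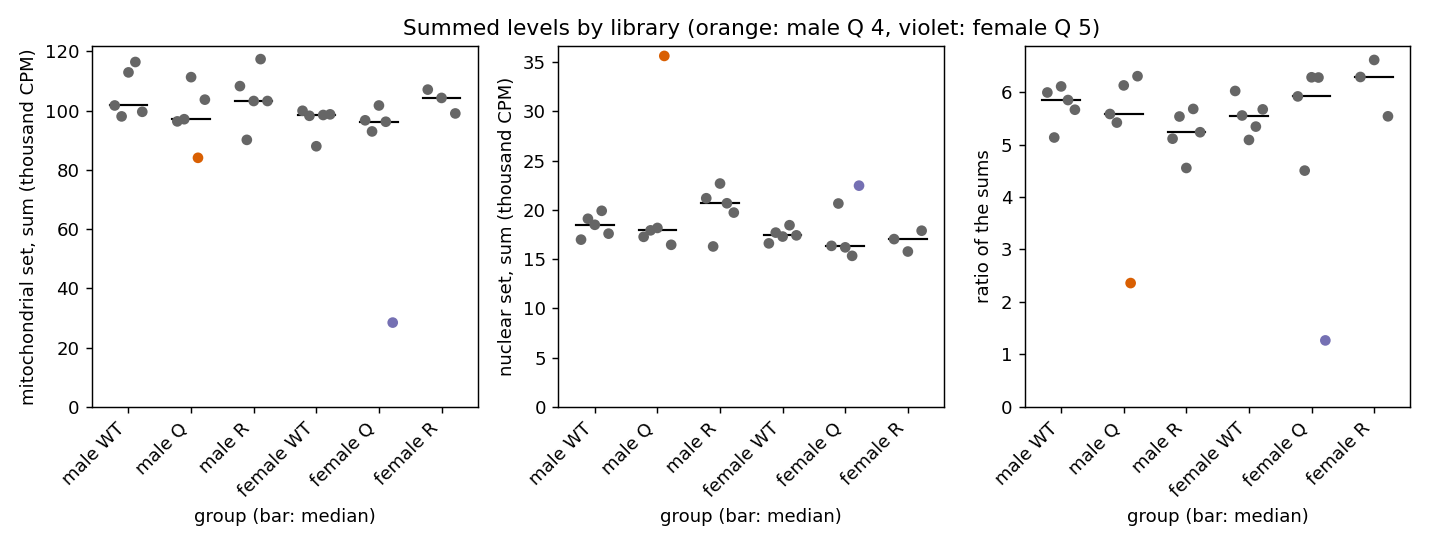
Summed level of the mitochondrial set, summed level of the nuclear set (CPM, axes labelled in kilo-CPM) and their ratio in each library by group, with the median of the group as a bar. Male Q replicate 4 (orange) is high in the nuclear set, female Q replicate 5 (violet) is low in the mitochondrial set, and the other 26 ratios lie between 4.50 and 6.61.

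Over the 28 libraries the sets' summed levels did not run together. The correlation of their log2 sums was -0.27 (Pearson) and 0.08 (Spearman), a description over libraries that share a scaling to the same total. Without male Q replicate 4 and female Q replicate 5 it was 0.38 and 0.34 over 26 libraries. Within males the Pearson value was -0.31 over 15 libraries and 0.53 over the 14 without replicate 4 of male Q. Within females it was -0.73 over 13 and -0.35 over the 12 without replicate 5 of female Q, so that with those libraries aside the sign differed between the sexes. The scaling also moved it: on CPM of plain library totals the 26 libraries gave -0.0015 where the scaled values gave 0.38.

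**Figure D3:**
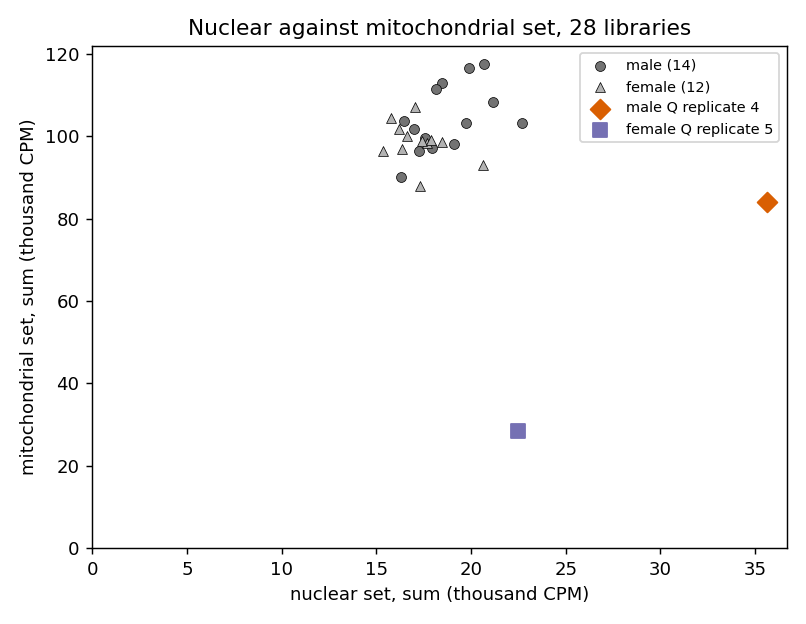
Summed mitochondrial set against summed nuclear set (both CPM, axes labelled in kilo-CPM), 1 point per library, for 14 male and 12 female libraries and the 2 that stood apart. The cloud of 26 lies between 15336 and 22680 CPM on the nuclear axis, and the other 2 points lie outside it, to the right and below.

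Gene by gene, correlations were higher within a set than between sets, a description over libraries that share their scaling. Over 28 libraries the median Pearson correlation of log2 CPM was 0.77 across 2145 pairs of nuclear members, 0.72 across 78 mitochondrial pairs and -0.07 across 858 pairs with a gene from each set. Over 26 libraries the medians were 0.70, 0.47 and 0.36. The 26 libraries also show which members kept apart from their own set: Cox4i2 (-0.29), Cox8b (-0.17), Cox6b2 (-0.16), Sdha (0.01), the flavoprotein subunit of complex II, and Ndufa4l2 (0.03) had the lowest correlation with the summed nuclear level. Uqcr11 had the highest (0.97). In the mitochondrial set mt-Nd4l (0.37) was lowest and mt-Cytb (0.92) highest.

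Among genes outside the chain, those whose log2 CPM ran most like the nuclear sum over 26 libraries were Serf2 (Pearson 0.97), Atp5e and Atp5g3 (both 0.96), subunits of the ATP synthase, Mrpl42 (0.96) of the mitochondrial ribosome, and 2410015M20Rik (0.95). Over 28 libraries they were Edf1 (0.98), Clta, D8Ertd738e, Lamtor4 and Ubxn1 (all 0.97). For the mitochondrial sum the closest over 26 libraries were 2610301B20Rik (0.81), Gm10925 (0.79), Ublcp1 (0.76), Tmem69 (0.75) and Dram2 (0.73). Over 28 libraries they were Gm10925 (0.97), the copy of mt-Atp6 described above, Ilk (0.92), Gm8325 and Mpc1-ps (both 0.90) and Gm5900 (0.87). The lists over 28 and 26 libraries share Gm10925 alone.

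In male Q replicate 4 nearly all nuclear members were high, while mitochondrial genes went both ways. Of the 66 tested nuclear members, 61 were above the median of the other male libraries, by a median of 1.03 on the log2 scale, against medians of -0.23 to 0.33 in the 26 other libraries measured the same way. The highest was Ndufa2, a complex I subunit, at 412 CPM against 108 to 181 in the other 14 male libraries, 3.31-fold their median. Ndufs1, Uqcrc2 and Sdha, large core subunits of complexes I, III and II, were low, with Ndufs1 at 200 CPM against 249 to 331. Among mitochondrial genes mt-Nd5 was 3589 CPM against 5672 to 10183 in the other males and mt-Co1 19531 against 32699 to 40653, yet mt-Nd6 was 5166 against 1983 to 3046 and mt-Nd3 94.6 against 21.9 to 60.9. mt-Nd6 is the mitochondrial protein gene read from the opposite strand to the others, but its counts do not separate the strands. The ratio of mt-Nd6 to mt-Co1 was 0.265 here and 0.049 to 0.087 in the 26 libraries.

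Transcript length was set beside these differences. Nuclear members with principal transcripts under 1 kb (41 genes) had a median deviation of 1.08, and the 25 of 1 kb and over 0.84. Over the 66 tested nuclear members the deviation of male Q replicate 4 had a Spearman correlation of -0.36 with length. The other 26 libraries ran from -0.35 to 0.46. Over 17173 genes with an annotated length the deviation of this library had a Spearman correlation of -0.44 with length, where the other 26 libraries ran from -0.42 to 0.30. All genes under 1 kb stood 0.74 higher at the median and those over 3 kb at -0.30 (log2), and 24 of 24 cytosolic ribosome genes and 48 of 48 genes of the large mitochondrial ribosome subunit were above the other males. The part that length plays in the members' levels was not tested.

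In female Q replicate 5 all 13 mitochondrial genes were below the median of the other female libraries, by a median of 1.93 on the log2 scale, and 54 of 66 nuclear members were above it, by a median of 0.39. mt-Nd4, a proton-pumping subunit of complex I, was 647 CPM against 6128 to 7398 in the other 12 female libraries, 10.3-fold below their median. mt-Cytb was 5214 CPM against 19862 to 24344. mt-Nd6, at 1552 against 1893 to 2517, was nearest to the other libraries. The genes of the set therefore did not fall by a common factor: the ratio of mt-Nd1 to mt-Nd4 was 7.55 here and 1.74 to 2.22 in the 26 libraries. The 2 mitochondrial ribosomal RNAs, which are no members, summed to 7099 CPM against 5880 to 9770 in the other females. Of the nuclear members Ndufb9 was highest against the others (303 CPM, other females 93.8 to 135), and Ndufa12 (106, others 210 to 325) and Ndufb4 (39.2, others 71.4 to 102) lowest, all 3 being accessory subunits of complex I. Brown fat markers were lower here, at 0.0559 CPM in sum for Ucp1 and Cidea against 0.184 to 37.3, the lowest values being near the detection limit. Erythroid markers were higher in 5 of 5, as they were in male Q replicate 4 (5 of 5). Also higher here were 37 of 48 genes of the large mitochondrial ribosome subunit and 19 of 24 cytosolic ribosome genes. The part of these lists was not tested.

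**Figure D4:**
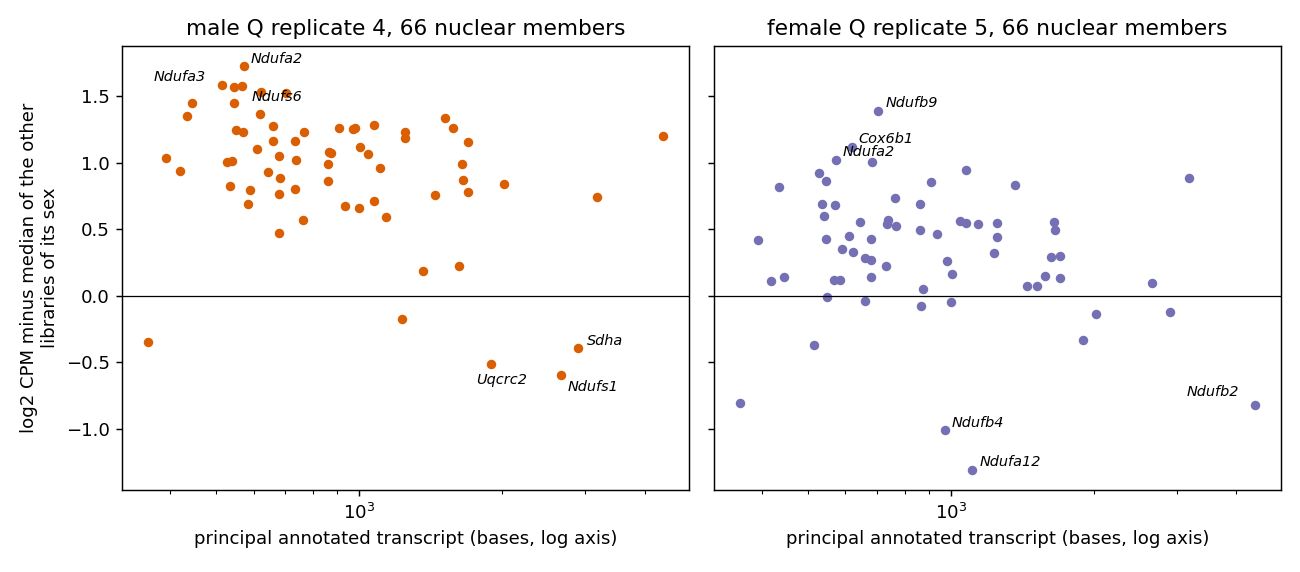
Deviation of the 66 tested nuclear members in male Q replicate 4 (left) and female Q replicate 5 (right) from the median of the other libraries of the same sex (log2 CPM), against the length of the principal annotated transcript on a log axis. On the left 61 points lie above 0, and the 5 below are Ndufs1, Uqcrc2, Sdha and, not labelled, Cox8b (360 bases) and Sdhd (1231 bases); on the right 54 lie above 0, with Ndufa12, Ndufb4 and Ndufb2 lowest.

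No respiratory chain gene passed the test in any comparison of genotypes. The quasi-likelihood test of edgeR with Benjamini-Hochberg adjustment called 0 of 79 members in male Q against WT (0.00% of 17573 genes called), male R against WT (0.00%), male Q against R (0.00%), female Q against WT (0.00%), female R against WT (0.00%), female Q against R (0.00%), and in Q against WT (0.00%), R against WT (0.00%) and Q against R (0.00%) averaged over the sexes. These comparisons share control libraries and are not independent. DESeq2 and limma voom with quality weights also called 0 members in each. At an unadjusted p under 0.05 edgeR passed 2 members in male Q against WT (5.10% of all genes), 1 in male Q against R (4.10%), 1 in both sexes Q against WT (4.72%), 1 in both sexes Q against R (3.93%). It passed 0 in male R against WT (2.13%), female Q against WT (2.94%), female R against WT (1.92%), female Q against R (3.03%) and both sexes R against WT (1.34%).

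Male Q against male R depended on the libraries that stood apart. With all libraries the nuclear members had a median log2 difference of 0.06 and the mitochondrial members -0.06. Without male Q replicate 4 and female Q replicate 5 the nuclear median turned to -0.25 (all genes -0.0087) and the mitochondrial median was -0.14. In that fit 43 of 66 nuclear and 2 of 13 mitochondrial members were at an unadjusted p under 0.05, beside 1879 of 17428 genes, and edgeR called 0. The 2 libraries were left out for their levels of these same members, so smaller p-values can follow from that choice. Nuclear members also ran together across libraries, so such a count is not a count of separate results. Both limits hold for every fit without these 2 libraries. Voom with quality weights, on all libraries, gave a nuclear median of -0.22, with 38 nuclear members at an unadjusted p under 0.05, beside 2332 of 17573 genes, and called 0 members. Averaged over the sexes, Q against R had 12 nuclear members and 1 mitochondrial member at that level without both libraries (860 of 17428 genes) and 21 nuclear members with voom (1450 of 17573 genes). The summed nuclear level was 16457 to 18170 CPM in male Q without replicate 4 and 16290 to 22680 in male R, so the groups overlapped through 1 male R library.

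The nearest members were the following. Ndufa10, an accessory subunit of complex I, was 223, 241, 230, 237 and 235 CPM in male WT and 244, 230, 242, 433 and 244 in male Q, a log2 difference of 0.26 ± 0.12 (SE, adjusted p = 0.917). The 433 is replicate 4. Ndufb6, another accessory subunit, was 130, 150, 140, 145 and 143 CPM in male WT and 152, 144, 149, 329 and 134 in male Q, 0.36 ± 0.17 (edgeR, adjusted p = 0.917). Again replicate 4 held the highest value: without it the difference was 0.04 for Ndufa10 and 0.03 for Ndufb6. Cox8b was 1.40, 1.89, 4.25, 2.86 and 1.84 CPM in male Q and 3.89, 4.57, 3.62, 3.75 and 9.25 in male R, -1.03 ± 0.39 (edgeR, adjusted p = 0.9999), and the groups overlap through the Q library at 4.25. Uqcrc2 was 0.14 lower in Q than in WT over both sexes (SE 0.07, edgeR adjusted p = 0.920), and -0.07 without the 2 libraries that stood apart. It was 460, 438, 502, 508 and 439 CPM in male WT and 428, 437, 456, 312 and 437 in male Q. In females it was 443, 466, 458, 455 and 455 in WT and 442, 437, 460, 416 and 357 in Q. The 312 and the 357 are the libraries that stood apart, and the genotypes overlap in both sexes.

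Against WT, the set medians were as follows. In males the nuclear members had a median log2 difference of 0.23 for Q against WT and 0.15 for R against WT, where the median over all genes was 0.0057 and -0.0033. In females these were 0.07 and -0.06. The mitochondrial members had medians of -0.06 and 0.07 in males and -0.21 and 0.08 in females. Without the 2 libraries that stood apart the male nuclear median for Q against WT was -0.09 and the female mitochondrial median 0.03. In that fit 13 nuclear members were at an unadjusted p under 0.05 in male R against WT (828 of 17428 genes), and 0 were called.

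Whether a genotype difference itself differed between the sexes was tested by the interaction terms, which called 0 of 79 members for Q against WT (0.00% of genes) and for R against WT (0.00%) by edgeR, with 0 at an unadjusted p under 0.05 in both (3.11% and 2.82% of all genes). Ndufa10 had the smallest p for Q, a difference of 0.33 ± 0.17 (SE, adjusted p = 0.999), which was 0.11 when male Q replicate 4 was left out and 0.08 when female Q replicate 5 was left out as well. Ndufb2 had the smallest p for R, 0.59 ± 0.37 (edgeR, adjusted p = 0.992). Without both libraries 1 nuclear member for Q (532 of 17428 genes) and 7 nuclear members and 1 mitochondrial member for R (1148 of 17428 genes) were at an unadjusted p under 0.05, with 0 called.

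Sex was the comparison in which members passed. Averaged over the 3 genotypes, edgeR called 22 of 79 members (27.8%) between males and females, beside 40.2% of the 17573 genes tested, a difference in share that was not tested. In males 19 were higher (background 18.9% of genes) and 3 lower (21.3%). By set these were 3 of 13 mitochondrial genes higher, and 16 of 66 nuclear genes higher and 3 lower. The median difference was 0.20 for mitochondrial and 0.18 for nuclear members, where all genes had -0.04. In no member were the 15 male and 13 female libraries fully separate. The share of all genes that were separate was not computed, so this says nothing particular to the members.

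Of the 38 nuclear members tested under complex I, the largest group, 13 were higher in males and 0 lower, beside 18.9% and 21.3% of all genes. A positive difference was found in 36 of the 38, beside 7900 of 17573 genes, in members that ran together. The 38 include Ndufa4. In complex IV 5 of 16 were called, and no difference in share between complexes was tested. Ndufb4 had the largest difference among the called members of complex I, 80.3 to 238 CPM in males (median 102) and 39.2 to 102 in females (median 78.9), a log2 difference of 0.60 ± 0.14 (SE, edgeR adjusted p = 0.0012). Most of the female libraries lay below the male median, and the extremes are the libraries that stood apart. Ndufa10 was 215 to 433 CPM in males (median 242) and 177 to 220 in females (median 194), 0.37 ± 0.07 (edgeR, adjusted p = 0.00014). Only 1 male library, at 215, fell below the highest female one. Ndufv1, the core subunit that takes electrons from NADH, was 403 to 805 CPM in males (median 444) and 340 to 520 in females (median 371), 0.31 ± 0.08 (edgeR, adjusted p = 0.0034). Ndufa1 (0.46), Ndufv3 (0.42), Ndufa4 (0.42), Ndufs6 (0.38), Ndufb6 (0.37), Ndufa13 (0.36), Ndufb3 (0.28), Ndufa6 (0.27) and Ndufa8 (0.25) were also called higher in males on the log2 scale.

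The other nuclear complexes were called as follows. None of the 4 complex II genes passed, 1 of 8 in complex III did (Uqcrq, a small subunit, 0.44 ± 0.13, edgeR adjusted p = 0.0070), and in complex IV 2 were higher (Cox7a2, 0.34, and Cox8a, 0.28, the forms of these subunits found in most tissues) and 3 lower in males. Of the mitochondrial genes mt-Nd6 was 1983 to 5166 CPM in males (median 2446) and 1552 to 2517 in females (median 1988), 0.38 ± 0.10 (edgeR, adjusted p = 0.0045). Reads of both strands were counted for mt-Nd6, so this difference cannot be assigned to its mRNA alone. mt-Nd1 (0.30) and mt-Co2 (0.29) were the others called, the latter within the uncertain run, and mt-Nd1 did not pass without a filter on low counts (edgeR, adjusted p = 0.081). mt-Co1 had a difference of -0.07 ± 0.11 (edgeR, adjusted p = 0.660), with 19531 to 40653 CPM in males and 13347 to 41779 in females.

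**Figure D5:**
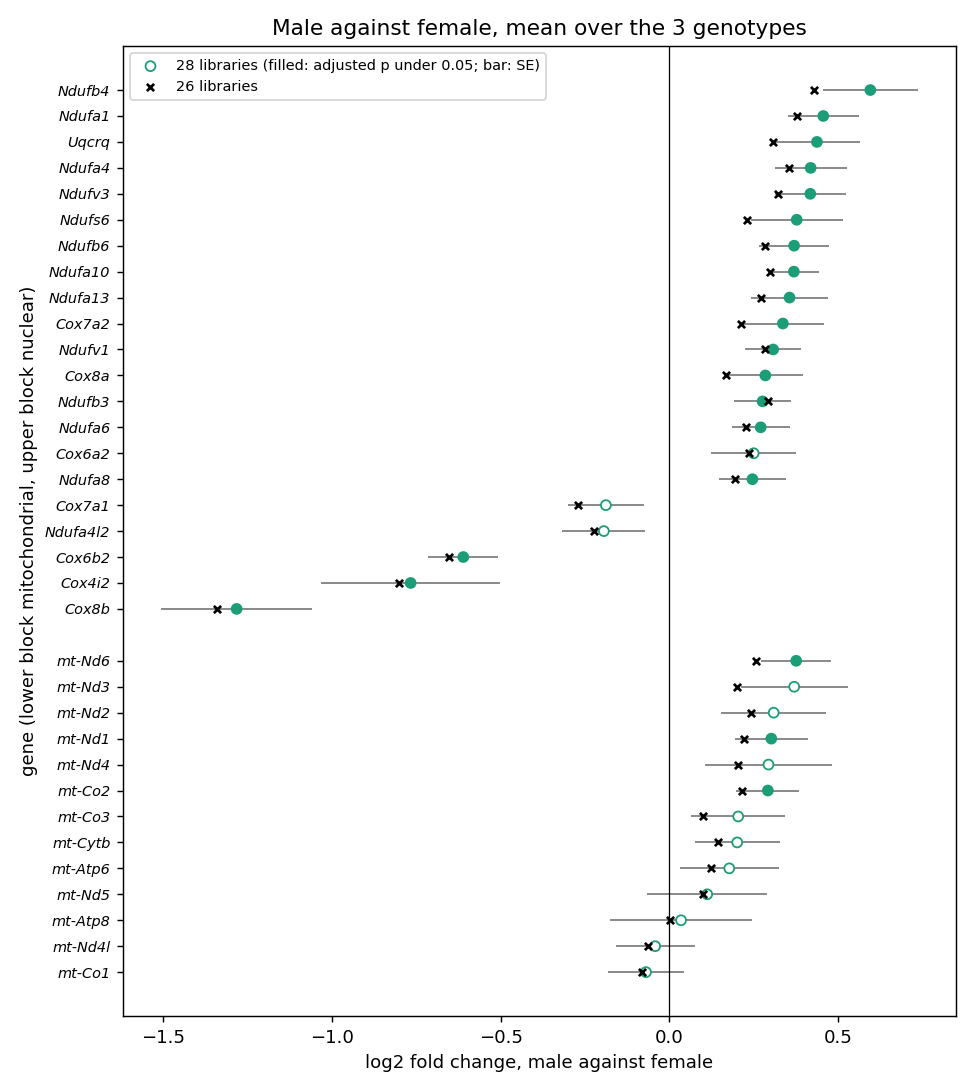
Log2 fold change of male against female libraries, averaged over genotypes, for the 13 mitochondrial genes and for the nuclear members called with a change of at least 0.2 in size or known as isoforms of other tissues. Circles are the fit over 28 libraries (filled where the adjusted p is under 0.05, bars 1 SE) and crosses the fit over 26; the called changes run from -1.28 (Cox8b) to 0.60 (Ndufb4).

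Leaving out the 2 libraries that stood apart raised the number of members called to 39 (45.9% of 17428 genes in that fit), 34 higher (background 22.6%) and 5 lower (23.3%) in males, and these included all 22 of the full fit. The 2 libraries were picked by the members' own levels, so the rise can follow from that choice. Leaving out female Q replicate 5 alone gave 34. The median differences became smaller, 0.14 for mitochondrial and 0.12 for nuclear members. Complex I then had 19 nuclear members higher and 0 lower. The mitochondrial genes mt-Nd2, mt-Nd4 and mt-Cytb joined the calls, at 0.24, 0.20 and 0.14, and Cox7a1 (-0.27) and Cox7a2l (-0.16), the latter known from supercomplex assembly and chosen here after its values were seen, joined those lower in males.

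The 3 members lower in males were isoforms of complex IV subunits. Cox8b was 1.18 to 9.25 CPM in males (median 3.62) and 4.25 to 17.5 in females (median 7.17), -1.28 ± 0.22 (SE, edgeR adjusted p = 4.1e-05). Cox6b2 was 4.57 to 11.8 CPM in males (median 7.32) and 8.77 to 12.9 in females (median 11.9), -0.61 ± 0.10 (edgeR, adjusted p = 1.8e-05). Cox4i2, near the detection limit, was 0.159 to 1.33 CPM in males and 0.569 to 1.62 in females, -0.77 ± 0.27 (edgeR, adjusted p = 0.021), and was no longer called without female R replicate 1 (adjusted p = 0.066). Cox8b peaked where some fat markers did. Male R replicate 5 and female WT replicate 5 held the highest value of their sex, 9.25 and 17.5 CPM. They also held the highest Ucp1, 18.4 and 18.8 CPM, Plin1, 17.4 and 14.4 CPM, and Cidea, 13.1 and 18.5 CPM. Adipoq was highest in male R replicate 5 (13.1 CPM), but among females in female Q replicate 2 (12.8 CPM), with 9.98 CPM in female WT replicate 5. Of the brown fat list 2 of 3 genes were tested and 0 called between the sexes, at -1.01 ± 0.73 (SE) for Ucp1 and -0.68 ± 0.60 for Cidea, with sums of 0.204 to 31.5 CPM in males and 0.0559 to 37.3 in females. Of the white fat list 0 of 5 tested were called, with a median of -0.70 and sums of 30.4 to 181 and 46.1 to 159 CPM. These fat markers varied widely between libraries, so the absence of a call does not show that fat did not differ between the sexes. The part of fat in the level of Cox8b was not tested. Of the 4 tested skeletal muscle genes 1 was lower in males. Cox6a2 (0.25 ± 0.13, edgeR adjusted p = 0.117) and Ndufa4l2 (-0.19 ± 0.12, edgeR adjusted p = 0.217) did not pass.

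Markers of kidney cell types also differed between the sexes. Proximal tubule markers summed to 32475 to 66258 CPM in males and 18750 to 25282 in females, with 5 of 10 called higher and 3 lower in males and a median difference of 0.08. Kap, an androgen-regulated proximal tubule gene, made up much of the sum, at 22324 ± 8149 CPM in males (SD, n = 15) and 7524 ± 1989 in females (SD, n = 13). All 6 intercalated cell markers and 5 of 6 thick ascending limb markers (the other 1 was higher), cells that are likewise rich in mitochondria, were lower in males, with median differences of -0.51 and -0.40. So were 5 of 5 podocyte and 5 of 6 stroma markers, at -0.42 and -0.30. Their part in the members' differences was not tested.

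Of 232 tested genes in 10 lists of mitochondrial and related pathways, glycolysis and the cytosolic ribosome included, 86 were higher and 11 lower in males, beside 18.9% and 21.3% of all genes. The large mitochondrial ribosome subunit had 29 of 48 higher and 0 lower (median 0.25), among them Mrpl16 (0.63 ± 0.07, edgeR adjusted p = 4.6e-09). Of the assembly factors, which build the complexes, 18 of 40 were higher and 0 lower (median 0.20), among them Ecsit (0.44) and Coa6 (0.46). Cytochrome c and coenzyme Q genes had 10 of 16 higher and 1 lower, among them Cycs, cytochrome c itself, at 475 ± 68.0 CPM in males (SD, n = 15) and 282 ± 33.9 in females (SD, n = 13), a log2 difference of 0.75. Among the tricarboxylic acid cycle genes 8 of 17 were higher and 0 lower, such as Dlst (0.18). By contrast, 0 of 15 nuclear ATP synthase genes passed, the nearest being Atp5j at 0.14 (edgeR, adjusted p = 0.05001). The cytosolic ribosome had 0 of 24. Of the regulators of mitochondrial genes 2 of 16 were higher and 4 lower in males and 10 did not pass. The 4 with the smallest p were those lower in males, Gabpb1 (-0.49), Ppargc1a (-0.37), Perm1 (-0.50) and Esrrb (-0.46), of which Ppargc1a, the coactivator PGC-1 alpha, was 47.6 to 62.9 CPM in males and 57.7 to 82.8 in females. None of the 232 pathway genes was called between genotypes or in an interaction.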

How the data were processed

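RNA of whole kidneys was sequenced after poly(A) selection. The authors deposited whole-number read counts per gene, made with featureCounts (Subread 2.0.1) without strand and, per the file headers, without an option to keep reads that map to several places or to more than 1 gene. Trim Galore 0.6.7, SAMtools 1.6 and DESeq2 1.38.3 are named in the submitters' processing notes; the aligner is not given in the sources used here.

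Here the counts were tested in R 4.3.3 with edgeR 4.0.16 (TMM scaling, filterByExpr, quasi-likelihood test) in 1 fit over all 6 groups, which left 17573 genes, 99.91% of the counts and 22 residual degrees of freedom. P-values were adjusted over all genes by Benjamini-Hochberg, with a threshold of 0.05. limma 3.58.1 (voom), DESeq2 1.42.0, other scalings, no filter, a replicate block and leaving out libraries were the alternatives, and the script was tested on simulated data. Python 3.11.15, pandas 2.3.3, scipy 1.17.1 and matplotlib 3.10.9 were used for sums, sequences and plots.

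All mitochondrial members are named. Nuclear members are named if among the 12 with the smallest p of those called in a comparison (or the 4 with the smallest p where fewer than 4 were called), at the extremes of level per length in their complex, or isoforms of other tissues. Up to 4 genes of other lists and the 5 genes most like each set are named. Members farthest from the other libraries, least like their set, or sharing sequence with other genes were named after their values were seen. Some results that these rules would name are not reported here. Members and lists were chosen with earlier results of these data known.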

Additional observations from a re-analysis of the deposited data

Results flagged for a closer look

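Values that lay far from the rest of their group were sought by Dixon's test in groups of 5 libraries. Of 160 groups of values, 38 held such a library. A single such test flags about 5% by chance. The groups share libraries and hold members that ran together, so 38 cannot be measured against that share. Male Q replicate 4 accounted for 17 and female Q replicate 5 for 8.

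In male Q replicate 4 the summed nuclear set was 35639 CPM (other male Q 16457 to 18170) and the ratio of the sets 2.36 (5.42 to 6.30). Its nuclear members far above the group were Ndufa10 (433 CPM), Ndufa1 (274 CPM), Ndufb4 (238 CPM), Ndufv3 (439 CPM), Ndufa4 (1035 CPM), Ndufv1 (805 CPM), Ndufb6 (329 CPM), Uqcrq (1064 CPM), Ndufb3 (259 CPM), Ndufa6 (325 CPM) and Cox7a1 (45.7 CPM). Its mitochondrial genes far from the group were mt-Co1 (19531 CPM) and mt-Nd5 (3589 CPM), both low, and mt-Nd3 (94.6 CPM) and mt-Nd6 (5166 CPM), both high.

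In female Q replicate 5 the summed mitochondrial set was 28455 CPM (other female Q 93003 to 101764). mt-Nd1 (4881 CPM), mt-Nd2 (1263 CPM), mt-Co1 (13347 CPM), mt-Atp6 (12.1 CPM), mt-Co3 (15.4 CPM), mt-Nd4 (647 CPM) and mt-Cytb (5214 CPM) were all far below the group.

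In female WT replicate 3 the summed mitochondrial set was 87999 CPM (other female WT 98282 to 99980), with mt-Nd1 at 11713 CPM and mt-Co1 at 35067 CPM, both low, and Ndufv3 at 182 CPM, high. Female WT replicate 1 was high in mt-Nd6 (2244 CPM), Cox6a2 (6.30 CPM) and Ndufa4l2 (7.68 CPM), and female WT replicate 4 in Uqcrq (382 CPM). Single values far from their group were Ndufa10 in female Q replicate 2 (220.1 CPM, high), Ndufb6 in male R replicate 2 (129.9 CPM, low), Cox8b in male R replicate 5 (9.25 CPM, high), Cox7a1 in male WT replicate 2 (27.7 CPM, high) and Ndufa4l2 in male R replicate 3 (9.07 CPM, high).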

How the results depend on the processing

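In the 9 genotype comparisons and the interactions, 0 members were called under every alternative run. Between the sexes 22 members were called, 40 with voom and 39 without male Q replicate 4 and female Q replicate 5. Leaving out 1 library gave 17 to 34, the highest without female Q replicate 5. Without a filter 15 were called. With a replicate block it was 18. Of 26 pairs of same-numbered libraries 2 had deviations correlated over 0.1 (-0.234 to 0.188). Low correlations cannot exclude that same-numbered libraries were handled together. The correlation of the sets, -0.27, was -0.63 without TMM, -0.25 on counts outside the mitochondrial genome and 0.38 without both libraries; the cause was not tested.

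Of 2040 refits of 73 log2 differences of named genes, 2000 kept sign and side of the threshold, 2 lost and 14 gained a call, and 24 turned sign, none of them called. Without both libraries the turned values were Ndufv3 in male Q against WT (-0.018) and against R (-0.093), Uqcrfs1 in female Q against WT (-0.022), Ndufc2 (-0.017) and Ndufb11 (-0.025) in both sexes Q against WT, Ndufv1 in both sexes Q against R (-0.026), and the Q interactions of Ndufa3 (-0.079) and Ndufs6 (-0.0040). With voom they were Ndufv3 in male Q against R (-0.069), Uqcrfs1 in female Q against WT (-0.045) and against R (-0.010), Ndufc2 in female Q against WT (-0.0044) and in both sexes (-0.0045), Ndufb11 (-0.016), Ndufv1 (-0.026) and mt-Atp8 between the sexes (-0.0074). Without male Q replicate 4 they were Ndufv3 (-0.019 and -0.093), Ndufa3 (-0.018) and Ndufs6 (-0.035). Without female Q replicate 5 they were Uqcrfs1 (-0.023) and mt-Atp8 (-0.055), without male Q replicate 5 mt-Atp8 (-0.016), and without female R replicate 2 mt-Nd4l (0.010). Over all left-out libraries the highest values were 0.42 and 0.35 for Ndufv3 (against WT and R), 0.27 for Uqcrfs1, 0.29 for Ndufc2, 0.32 for Ndufb11, 0.18 for Ndufv1, 0.66 for Ndufa3, 0.59 for Ndufs6 and 0.098 for mt-Atp8, and the lowest for mt-Nd4l was -0.096. The cause was not tested. Depth limits Cox4i2, Cox7b2 and Cox8c.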
